A study of Sus scrofa with 2 samples.

Results

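LRP1B and its relatives in the LDL receptor family were followed through the cell classes of the pig left ventricle. The members were 8 listed gene symbols, LRP1B, LRP1, LRP2, LRP4, LRP5, LRP6, LRP8 and VLDLR, looked up in the symbol column of both count matrices. Of these, 7 were found among 31908 genes, and LRP1 is not analysed here. LRP1B and the list around it were chosen by the measured LRP1B levels of the libraries in cardiomyocytes, so that contrast is given as a description.

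Single-nucleus RNA sequencing gave 1 library per genotype. The TG library came from the triple-transgenic Bama pig named PNPLA3I148M-GIPRdn-hIAPP, which carries a variant of the lipase PNPLA3, a dominant-negative form of the receptor for the gut hormone GIP and the human amyloid peptide IAPP of the islets. The WT library came from the wild-type Bama pig, and both genotypes had been fed a diet high in fat and sucrose for 12 months. Nuclei were taken from frozen left ventricular free wall through an iodixanol gradient and read with the 10x Genomics 3' chemistry, version 3.1. The promoters of the transgenes, the ages and the number of animals behind each library are not given in the sources used here. Library and genotype are the same split, so what belongs to the genotype and what to the animal or the library cannot be told apart.

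Receptors of this family sit in the cell membrane and carry clusters of cysteine-rich repeats that bind lipoproteins, proteases and matrix proteins, which many of them take into the cell. LRP1B is among the largest of them and is best known from the brain, where its slow uptake of ligands has been described. LRP5 and LRP6 are co-receptors for Wnt ligands, VLDLR and LRP8 bind reelin and lipoproteins, LRP4 binds agrin at the neuromuscular junction, and LRP2, or megalin, takes up proteins in the kidney.

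The TG library held 15000 barcodes and 89324966 unique molecular identifiers (UMIs, single counted transcripts). The WT library held 18251 barcodes and 127126477 UMIs. After filtering, 14939 TG nuclei had a median of 3937 UMIs and 16725 WT nuclei a median of 5442 UMIs. The libraries shared 81 barcodes, of which 28 TG and 30 WT nuclei were cardiomyocyte-like. Cardiomyocyte-like nuclei, 5299 in TG and 6778 in WT, came from 4 clusters, and 12 of 15 cardiomyocyte markers were in the files, none of them at 0. Levels are UMIs of a gene per 1000000 UMIs of nuclear genes, summed over a class (CPM), and ratios are TG over WT. The intervals, at 95%, hold counting error and nothing else. With 1 library a genotype nothing could be checked against replicates, and no test was run.

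LRP1B was higher in TG than in WT in every one of the 8 classes compared, and of these classes cardiomyocyte-like nuclei had its highest level in both libraries. In that class it stood at 1813 CPM in TG (exact Poisson interval 1801 to 1825, from 84249 UMIs), against 88.4 CPM in WT (86.3 to 90.5, from 6604 UMIs). The gene spans 1887165 bases on chromosome 15, from 9612805 to 11499969 in Sscrofa11.1, per the RefSeq annotation. Without the shared barcodes the log2 ratio was 4.36, the same as with them.

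The nuclei differed as well as the sums. The median TG cardiomyocyte-like nucleus held 10 LRP1B UMIs, with quartiles at 2 and 23 and a highest count of 176. The median WT nucleus held 0, the 95th percentile was 6 and the highest count was 89. At least 10 LRP1B UMIs were seen in 2684 TG nuclei (50.7%), against 219 WT nuclei (3.23%). The few high nuclei carried much of the WT total, since the top 1% of WT nuclei, 68 of them, held 38.4% of its LRP1B UMIs. In TG the top 1%, 53 nuclei, held 6.99%.

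Depth differed between the libraries, with medians of 7662 UMIs per cardiomyocyte-like nucleus in TG and 10069.5 in WT, so nuclei were also thinned at random to a fixed number of UMIs. At 1000 UMIs, LRP1B was detected in 61.2% of TG nuclei (exact Clopper-Pearson interval 59.9% to 62.5%, 3242 of 5299) and in 4.65% of WT nuclei (4.16% to 5.18%, 312 of 6713), and 65 shallower WT nuclei were left out. Unthinned, the shares were 82.0% in TG and 11.8% in WT. Macrophage-like nuclei, which are not known to make LRP1B, showed it in 4.24% of TG nuclei (2.79% to 6.15%) and 0.230% of WT nuclei (0.0475% to 0.671%) at 1000 UMIs, with unthinned medians of 2879 and 4126 UMIs. The cardiomyocyte-like share was above that of macrophage-like nuclei in both libraries, and the intervals did not overlap. Macrophage-like nuclei had the lowest TG share of the classes compared in this draw. Their interval overlapped that of fibroblast-like nuclei at 4.97% (4.05% to 6.03%), so the order of this pair is not settled. In TG the share was 16.9% in T or NK lymphocyte-like, 16.4% in pericyte-like and 14.4% in lymphatic endothelial-like nuclei, all under the cardiomyocyte-like share.

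At 4000 UMIs, which 4381 TG and 6042 WT cardiomyocyte-like nuclei reached, the shares were 83.7% in TG (82.6% to 84.8%) and 9.10% in WT (8.39% to 9.86%). A share of 26.9% would be reached in WT if every nucleus had the same mean level, so the WT transcripts were gathered in fewer nuclei than that. In TG the same calculation gives 99.9%, also above the share seen. Nuclei with at least 1 LRP1B UMI averaged 8.34 UMIs in TG and 3.44 in WT. At this depth the ratio of mean UMIs per nucleus was 22.3-fold, a product of 2 factors. A 9.19-fold ratio in the share of nuclei with LRP1B detected was multiplied by a 2.42-fold ratio in the mean among those nuclei. The split moves with depth. The detected shares were 46.0% in TG and 2.74% in WT at 500 UMIs, and 72.9% and 6.88% at 2000 UMIs.

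**Figure D1:**
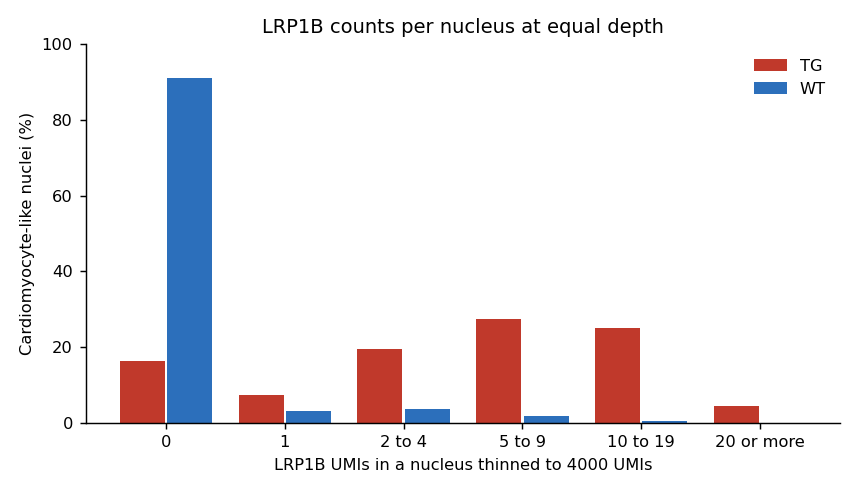
Share of cardiomyocyte-like nuclei (%, vertical axis) by number of LRP1B UMIs after thinning each nucleus to 4000 UMIs (horizontal axis), in 4381 TG and 6042 WT nuclei. In TG 16.3% of nuclei have no LRP1B UMI and 27.3% have 5 to 9, while in WT 90.9% have none and 1.89% have 5 to 9.

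LRP1B had a higher variance over its mean across nuclei than the other members. Its variance over its mean at 4000 UMIs was 6.04 in TG and 6.12 in WT, where counting error alone at 1 common level gives a value near 1. The 6 other members lay between 1.06 and 1.24 in both libraries. Abundant muscle genes were above 1 as well, at 5.04 in TG and 4.90 in WT for the catenin CTNNA3, and at 14.5 and 14.6 for the calcium release channel RYR2. Their means were also higher than that of LRP1B, and the ratio moves with the mean. In WT the LRP1B mean of 0.313 UMIs was near the 0.356 of VLDLR, whose ratio was 1.24. In TG the LRP1B mean was 6.97 UMIs, against at most 0.607 for another member, LRP6. The TG ratios of LRP1B and the other members are therefore not set at a like mean.

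The level of LRP1B also differed among the 4 cardiomyocyte-like clusters, which were made without LRP1B and its relatives among the clustering genes. Cluster 7, with 1585 TG nuclei and 32 WT nuclei, stood at 2309 CPM in TG (2287 to 2331) and 1251 CPM in WT (1142 to 1367). Cluster 1, with 3418 TG and 125 WT nuclei, was at 1513 CPM in TG (1498 to 1528) and 75.7 CPM in WT (57.6 to 97.6). The libraries therefore lay closest in the small WT portion of cluster 7, a cluster that LRP1B, TENM2 and ERBB4 led.

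The other 2 clusters were mostly WT. Cluster 2 was at 774 CPM in TG (724 to 828, 267 nuclei) and 21.1 CPM in WT (19.2 to 23.1, 2827 nuclei), and cluster 0 at 1199 CPM in TG (1059 to 1352, 29 nuclei) and 107 CPM in WT (104 to 110.0, 3794 nuclei). Within each library, cluster 2 was the lowest of the 4. Of the 219 WT nuclei with at least 10 LRP1B UMIs, 198 were in cluster 0 and 11 in cluster 7, and none carried a barcode seen in both libraries. Without cluster 7 the log2 ratio in cardiomyocyte-like nuclei was 4.17.

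**Figure D2:**
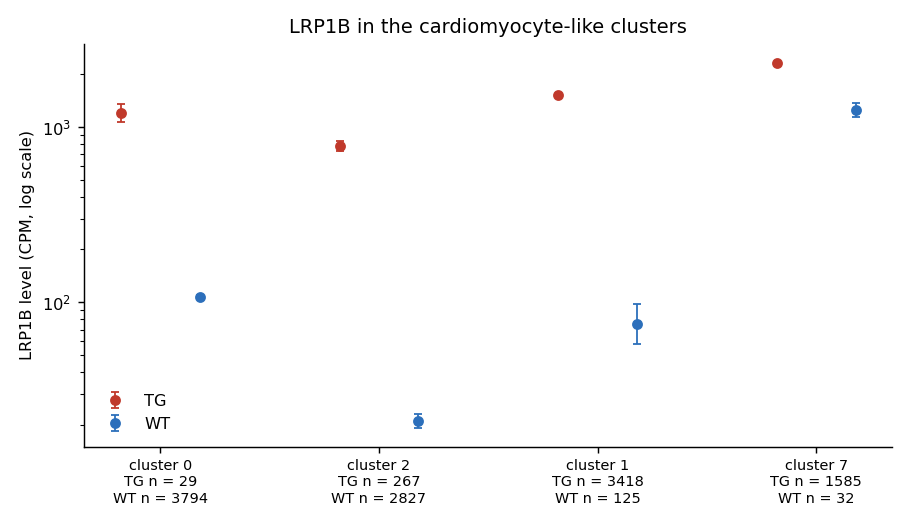
LRP1B level (CPM, log scale) in each cardiomyocyte-like cluster, TG left of WT, with exact Poisson intervals and the number of nuclei under each cluster. TG is above WT in all 4 clusters, by the least in cluster 7 at 2309 against 1251 CPM.

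In TG the LRP1B level rose with the depth of the nuclei, though the intervals of the bins below 6000 UMIs overlapped. In WT the deepest bin was the highest, but the rise was not steady. TG cardiomyocyte-like nuclei under 3000 UMIs stood at 1463 CPM (1396 to 1532), those from 3000 to 6000 at 1514 CPM, those from 6000 to 12000 at 1717 CPM and those above at 2028 CPM (2008 to 2048). WT nuclei stood at 58.2, 32.8, 67.8 and 106 CPM in the same bins, the last with an interval of 103 to 110 CPM. The TG level was above the WT level in every bin, and the bin of 3000 to 6000 UMIs was the lowest in WT and the second lowest in TG. Depth also differed by cluster, with medians of 10871 UMIs in TG cluster 7 and 3407 in TG cluster 2. In WT they were 12612 in cluster 0 and 7002 in cluster 2. The part of the clusters in the depth bins was not tested.

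In the other 7 of these 8 classes LRP1B was lower in both libraries, and TG was above WT by 8.0-fold to 34.1-fold. In TG the order was pericyte-like (767 CPM) and T or NK lymphocyte-like (756 CPM), whose intervals overlapped, then Schwann or neural-like (416 CPM), vascular endothelial-like (341 CPM) and lymphatic endothelial-like nuclei (215 CPM), and last macrophage-like (89.2 CPM) and fibroblast-like nuclei (75.5 CPM), whose intervals overlapped. In WT it was Schwann or neural-like (52.0 CPM), T or NK lymphocyte-like (32.2 CPM), vascular endothelial-like (23.5 CPM) and pericyte-like (22.5 CPM), each overlapping the one before, then lymphatic endothelial-like (11.5 CPM), fibroblast-like (3.78 CPM) and macrophage-like nuclei (3.31 CPM), the last pair overlapping. The ratio was lowest in Schwann or neural-like nuclei at 8.0 (5.74 to 11.4) and highest in pericyte-like nuclei at 34.1 (25.6 to 46.6). The WT side of the pericyte-like ratio rests on 47 LRP1B UMIs in only 8 of 454 nuclei.

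**Figure D3:**
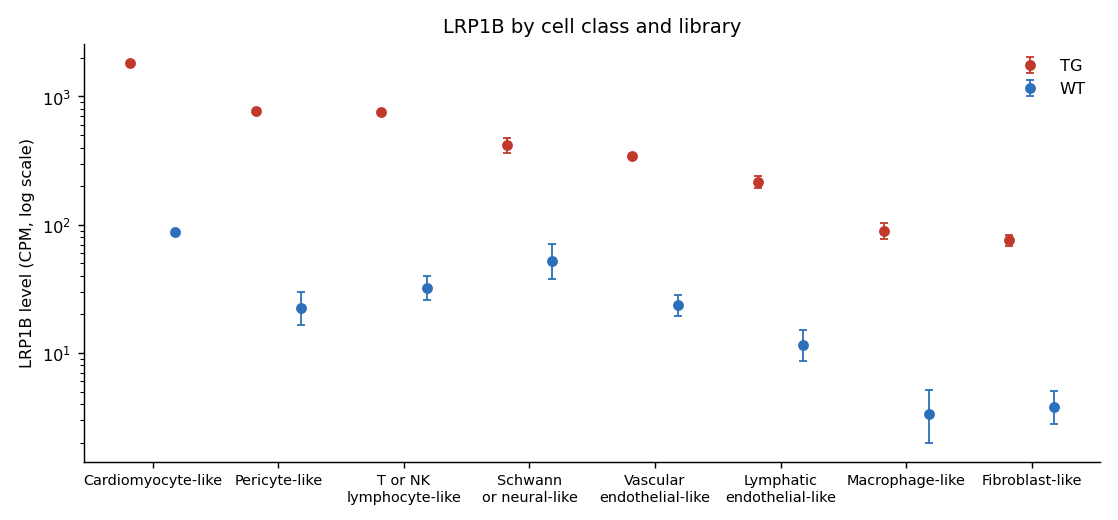
LRP1B level (CPM, log scale) in the 8 classes with at least 100 nuclei in both libraries, TG left of WT, with exact Poisson intervals. TG is above WT in every class, from 1813 against 88.4 CPM in cardiomyocyte-like nuclei to 75.5 against 3.78 CPM in fibroblast-like nuclei.

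Muscle transcripts were counted in all of these classes. RYR2, a defining cardiomyocyte gene, reached 41.2% of its cardiomyocyte level in TG T or NK lymphocyte-like nuclei and 21.9% in WT ones, while LRP1B reached 41.7% and 36.4% of its own. In fibroblast-like nuclei RYR2 was at 5.27% of its cardiomyocyte level in TG and 2.99% in WT, and LRP1B at 4.17% and 4.28%. The myosin genes MYL2 and MYH7 ran otherwise. In TG fibroblast-like nuclei they stood at 2567 and 4166 CPM, above the 1467 and 2819 CPM of TG cardiomyocyte-like nuclei. In WT fibroblast-like nuclei they stood at 778 and 970 CPM, below the 2030 and 2623 CPM of WT cardiomyocyte-like nuclei. The same order held in every other class compared. In pericyte-like nuclei RYR2 was at 44.5% of its cardiomyocyte level in TG and 26.6% in WT, and LRP1B at 42.3% and 25.4%. In Schwann or neural-like nuclei RYR2 was at 32.3% in TG and 23.7% in WT, while LRP1B was at 22.9% and 58.8%. The part of muscle RNA in the LRP1B ratios of these classes was not tested. Set against RYR2, cardiomyocyte-like nuclei held 113 LRP1B UMIs per 1000 RYR2 UMIs in TG (112 to 114) and 4.19 in WT (4.09 to 4.29). Fibroblast-like, macrophage-like, T or NK lymphocyte-like, pericyte-like and Schwann or neural-like nuclei lay between 80.4 and 115 in TG and between 4.0 and 10.4 in WT. In TG the values of these 5 classes were near the cardiomyocyte proportion or under it. In WT only the pericyte-like value of 4.0 (2.94 to 5.32) had an interval that held it, and the other 4 lay above it, up to 10.4 (7.47 to 14.1) in Schwann or neural-like nuclei. The WT values of Schwann or neural-like nuclei rest on 42 LRP1B UMIs in 5 of 166 nuclei.

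Some of the endothelial nuclei lay above that proportion in both libraries. Lymphatic endothelial-like nuclei held 415 LRP1B UMIs per 1000 RYR2 UMIs in TG (363 to 474) and 24.9 in WT (18.7 to 32.7). The TG value came from 315 LRP1B UMIs in 130 of 515 nuclei. The WT value came from 54 LRP1B UMIs in only 10 of 918 nuclei. Within vascular endothelial-like nuclei, cluster 11, led by PTPRB, the lymphangiogenic factor gene VEGFC and LRFN5, held 659 per 1000 in TG (620 to 700) and 55.5 in WT (44.2 to 68.9). Its LRP1B level was 708 CPM in TG (676 to 742, 605 nuclei) and 40.1 CPM in WT (32.1 to 49.5, 488 nuclei). The WT level came from 87 UMIs, and at 1000 UMIs 9 of 483 WT nuclei of cluster 11 showed LRP1B. The larger vascular cluster 4 lay at 101 per 1000 in TG (90.4 to 112) and 4.19 in WT (0.862 to 12.3), where only 3 LRP1B UMIs were counted, and cluster 12 at 120 in TG and 6.99 in WT.

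**Figure D4:**
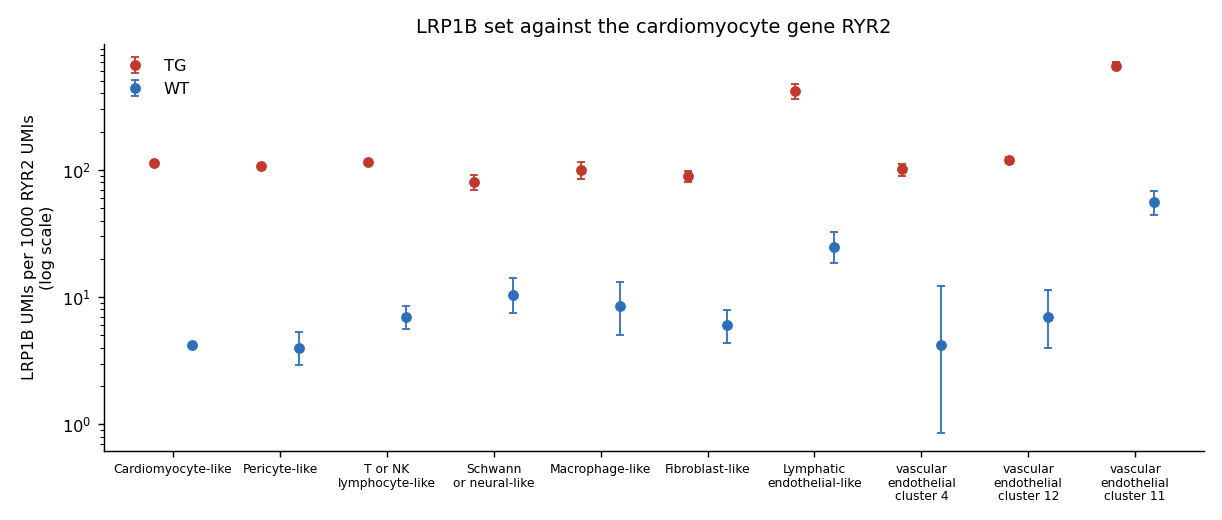
LRP1B UMIs per 1000 UMIs of the cardiomyocyte gene RYR2 (log scale) by class, with the vascular endothelial-like clusters apart, TG left of WT, with 95% intervals of counting error. Cardiomyocyte-like nuclei lie at 113 in TG and 4.19 in WT, and lymphatic endothelial-like nuclei (415 in TG, 24.9 in WT) and vascular cluster 11 (659 in TG, 55.5 in WT) are the highest of those plotted in both libraries.

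The 6 annotated neighbours of LRP1B on chromosome 15 had ratios from 0.743 to 3.03, where the LRP1B ratio was 20.5. Of these, 3, including the nearest on each side, were past 1.5-fold higher in TG, beside 24.5% of all genes in that class. None was lower by that fold, beside 9.88%. The 3 were also the sparsest of the 6, with 228 TG and 121 WT UMIs for ARHGAP15, 89 and 70 for KYNU and 38 and 33 for NXPH2. On the lower side, cardiomyocyte-like nuclei held the glycosyltransferase-like gene GTDC1 at 119 CPM in TG and 160 CPM in WT, a ratio of 0.743 (0.719 to 0.767). ARHGAP15, a GTPase-activating protein of blood cells, was at 4.91 CPM in TG and 1.62 CPM in WT, a ratio of 3.03 (2.42 to 3.81). KYNU, a kynureninase of tryptophan breakdown, was at 1.92 CPM in TG and 0.937 CPM in WT, a ratio of 2.04 (1.48 to 2.84). On the upper side NXPH2, a neurexophilin, was at 0.818 CPM in TG and 0.442 CPM in WT, a ratio of 1.85 (1.13 to 3.05). SPOPL, an adaptor of a ubiquitin ligase, was at 27.3 CPM in TG and 28.3 CPM in WT. HNMT, which inactivates histamine, was at 13.8 CPM in TG and 11.9 CPM in WT, a ratio of 1.16 (1.04 to 1.28).

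The genes whose levels ran most like LRP1B over the 16 class and library values were SMIM2, GRIK1, GLRA3, HRC and EPHX1, with Pearson's r of 0.94 to 0.91 on log2(CPM + 1) among 6633 genes ranked. These values share 2 libraries, their depth and the muscle transcripts counted in every class. SMIM2, a small membrane protein gene, stood at 63.6 CPM in TG and 5.88 CPM in WT cardiomyocyte-like nuclei. GRIK1, a kainate receptor subunit, stood at 114 CPM in TG and 13 CPM in WT, and GLRA3, a glycine receptor subunit, at 66.8 CPM in TG and 14.7 CPM in WT. HRC, a calcium-binding protein of the sarcoplasmic reticulum, was closer between the libraries at 79.3 CPM in TG and 56.7 CPM in WT, and EPHX1, an epoxide hydrolase, was at 128 CPM in TG and 62.0 CPM in WT.

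Within a library these genes did not all go the same way between nuclei with much and with no LRP1B. TG nuclei with at least 5 LRP1B UMIs at 4000 UMIs held SMIM2 at 67.8 CPM, against 49.5 CPM in TG nuclei with none, and GRIK1 at 115 against 105 CPM. In WT, SMIM2 was at 9.83 CPM in the 142 nuclei with at least 5 and 5.46 CPM in the 5492 with none, and GRIK1 at 14.5 against 12.5 CPM. GLRA3 was also higher in the TG nuclei with at least 5, at 70.1 against 57.7 CPM, and stood at 17.1 against 14.6 CPM in WT. The values of the 142 WT nuclei rest on 19 UMIs of SMIM2, 28 of GRIK1 and 33 of GLRA3. No intervals were computed for them, so these WT directions are uncertain. HRC and EPHX1 went the other way in TG, with HRC at 71.8 against 91.9 CPM and EPHX1 at 122 against 140.5 CPM. In WT, HRC was at 55.4 against 55.5 CPM and EPHX1 at 48.1 against 61.8 CPM. The nuclei with at least 5 were also deeper, with medians of 9281.5 UMIs against 7164 in TG and 12624 against 10780.5 in WT, and the part of depth in this was not tested.

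LRP5 and LRP6, the Wnt co-receptors, were close between the libraries in cardiomyocyte-like nuclei. LRP5 stood at 130 CPM in TG (127 to 134) and 164 CPM in WT (161 to 167), a ratio of 0.793 (0.769 to 0.818), and was detected in 38.5% of TG nuclei and 46.3% of WT nuclei at 4000 UMIs. LRP6 stood at 153 CPM in TG (149.6 to 157) and 159 CPM in WT (156 to 162), a ratio of 0.964 (0.936 to 0.993), with detection in 42.5% of TG and 43.7% of WT nuclei. The direction of LRP6 flipped when the most abundant gene was left out of the totals, with a log2 ratio of 0.07, a scaling that raised every log2 ratio by 0.12.

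Both co-receptors had their own order of classes. LRP5 was highest in vascular endothelial-like nuclei, at 158 CPM in TG and 178 CPM in WT, and lowest in macrophage-like nuclei, at 28.1 CPM in TG and 30.5 CPM in WT. Its vascular and cardiomyocyte intervals overlapped in WT but not in TG, and its macrophage and fibroblast intervals in TG but not in WT. LRP6 was highest in fibroblast-like nuclei, at 348 CPM in TG and 318 CPM in WT, and lowest in T or NK lymphocyte-like nuclei, at 118 CPM in TG (105 to 131) and 71.7 CPM in WT (62.2 to 82.3), a ratio of 1.64 (1.37 to 1.97). The higher TG value in lymphocyte-like nuclei came with more muscle RNA in that class, RYR2 being at 6603 CPM in TG and 4618 CPM in WT, whose part in it was not tested.

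VLDLR, the very-low-density lipoprotein receptor, was highest in lymphatic endothelial-like nuclei of both libraries, at 128 CPM in TG (111 to 148) and 126 CPM in WT (116 to 136). Cardiomyocyte-like nuclei came next, at 67.6 CPM in TG (65.3 to 70.0) and 89.5 CPM in WT (87.4 to 91.7), a ratio of 0.755 (0.724 to 0.788), and in TG their interval overlapped that of pericyte-like nuclei at 58.3 CPM (50.3 to 67.2). The endothelium of blood vessels held far less, at 17.7 CPM in TG (15.2 to 20.5) and 8.17 CPM in WT (5.83 to 11.12), with 2.16 times as much in TG (1.53 to 3.13). Vascular cluster 4 was at 14.8 CPM in TG and 5.53 CPM in WT, and cluster 11 at 14.3 CPM in TG and 6.46 CPM in WT. Cluster 12, with 847 TG and 150 WT nuclei, was the highest of these 3 and close between the libraries, at 24.2 CPM in TG and 22.6 CPM in WT, and its part in the ratio of the class was not tested. Fibroblast-like nuclei stood at 38.6 CPM in TG and 25.5 CPM in WT, a ratio of 1.51 (1.27 to 1.80) that lay just past the 1.5-fold used as the limit.

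LRP8, the other reelin receptor, ran lower in TG cardiomyocytes. It stood at 7.23 CPM in TG (6.48 to 8.05, 336 UMIs) and 14.6 CPM in WT (13.8 to 15.5, 1094 UMIs), a ratio of 0.494 (0.436 to 0.559). At 4000 UMIs it was detected in 2.47% of TG nuclei (2.03% to 2.97%) and 5.49% of WT nuclei (4.93% to 6.10%). Both large TG clusters lay under both large WT clusters, with 7.47 CPM in cluster 1 and 6.49 CPM in cluster 7 of TG, against 14.2 CPM in cluster 0 and 15.9 CPM in cluster 2 of WT. The smaller TG portion of cluster 2 was at 13.4 CPM from 15 UMIs and the WT portion of cluster 1 at 12.8 CPM from 10. In T or NK lymphocyte-like nuclei it stood at 12.0 CPM in TG and 6.36 CPM in WT, from 50 UMIs in all, beside the higher TG level of RYR2 given above for that class, whose part was not tested. The highest LRP8 level was in the unnamed cluster 23, whose leading genes included WDFY4 and the dendritic cell receptor XCR1, at 29.2 CPM in TG from 4 UMIs and 31.7 CPM in WT from 25.

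LRP4, the agrin receptor, was highest in fibroblast-like nuclei of both libraries. It stood at 16.8 CPM in fibroblast-like nuclei of TG (13.6 to 20.5) and 30.6 CPM in those of WT (27.6 to 33.8), a ratio of 0.550 (0.435 to 0.689), and at 3.23 CPM in TG and 4.40 CPM in WT cardiomyocyte-like nuclei. Different clusters made up the fibroblasts of the 2 libraries. Cluster 5 held 1894 TG nuclei at 16.8 CPM and 28 WT nuclei at 41.85 CPM from 5 UMIs, and cluster 3 held 3 TG nuclei and 2348 WT nuclei, the WT ones at 34.6 CPM. Cluster 17, led by GFPT2, ADAMTS5 and PCDH9 and present in both, was at 12.6 CPM in TG from 3 UMIs and 11.4 CPM in WT from 25, so that no difference was detectable there at this depth.

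LRP2 was sparse everywhere. Cardiomyocyte-like nuclei held it at 6.43 CPM in TG (5.73 to 7.21) and 5.67 CPM in WT (5.15 to 6.24), and the ratio of 1.13 (0.975 to 1.32) included 1. No other class reached 50 UMIs over both libraries.

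**Figure D5:**
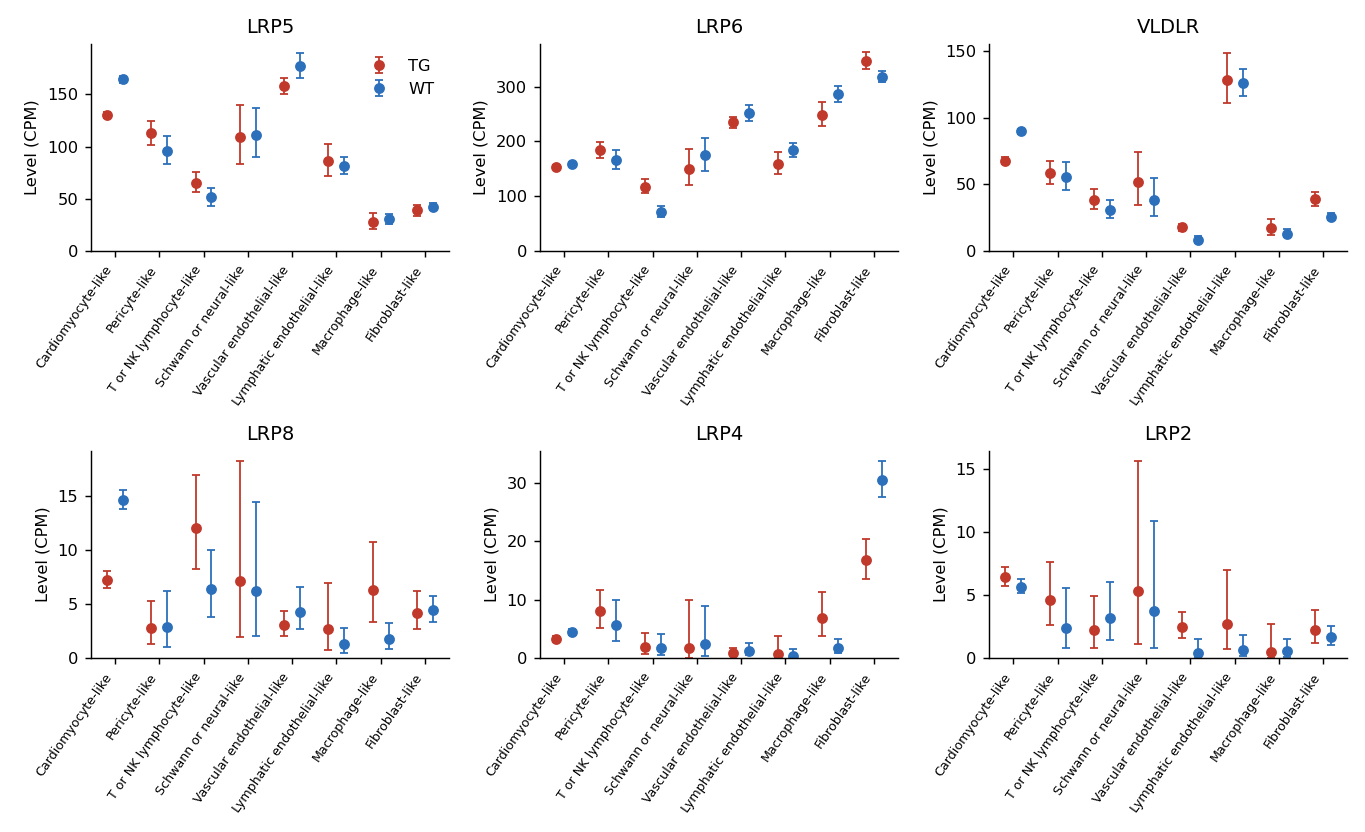
Levels (CPM) of the 6 other members in the 8 classes, TG left of WT in each class, with exact Poisson intervals and a vertical axis of its own for each gene. LRP8 in cardiomyocyte-like nuclei (7.23 in TG, 14.6 in WT) and LRP4 in fibroblast-like nuclei (16.8 in TG, 30.6 in WT) lie lower in TG, while VLDLR in vascular endothelial-like nuclei (17.7 in TG, 8.17 in WT) lies higher.

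Counted by a fold of at least 1.5 and at least 50 UMIs over both libraries, all 7 members were measured in cardiomyocyte-like nuclei, where LRP1B was higher in TG and LRP8 lower. Among all 16433 genes measured there, 24.5% were higher and 9.88% lower by that fold. In fibroblast-like nuclei 6 members were measured, with LRP1B and VLDLR higher and LRP4 lower, beside 16.3% and 10.4% of all genes. In vascular endothelial-like nuclei 5 were measured and LRP1B and VLDLR were higher, beside 13.2% of all genes, and none was lower, beside 8.42%. In T or NK lymphocyte-like nuclei 5 were measured and LRP1B, LRP6 and LRP8 were higher, beside 17.8% of all genes, and none was lower, beside 15.9%. In the other 4 classes 4 members each were measured, LRP1B alone was past the fold and higher, and none was lower. The shares of all genes higher and lower were 10.8% and 11.6% in lymphatic endothelial-like nuclei, 20.2% and 10.9% in macrophage-like nuclei, 14.1% and 12.4% in pericyte-like nuclei, and 13.4% and 14.9% in Schwann or neural-like nuclei.

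Partners of the family were read from 5 lists with 92 genes, of which 89 were in the files and 69 were measured in cardiomyocyte-like nuclei. By the same fold 16 were higher in TG, 8 were lower and 45 were neither, where 24.5% of all genes were higher and 9.88% lower, so the count as a whole lay near the share of all genes. Their median log2 ratio was 0.13, where all genes had a median of 0.03. The related receptors, which share repeats with the family or sort proteins in the cell, held 12 measured genes with 1 higher, 1 lower and a median of -0.18. SORCS1, a sorting receptor, was at 5.92 CPM in TG and 1.28 CPM in WT, and SORCS2 at 1.66 CPM in TG and 3.12 CPM in WT. LRP12 was at 177 CPM in TG and 158 CPM in WT, and the sorting receptor SORT1 at 111 CPM in TG and 136 CPM in WT.

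Of 14 measured chaperones, adaptors and turnover genes, 2 were higher and 3 lower, beside 24.5% and 9.88% of all genes. Their median log2 ratio was -0.01. LRPAP1, the chaperone that keeps ligands off new receptors, was at 30.1 CPM in TG and 19 CPM in WT. DAB1, the adaptor in reelin signalling, was at 1.53 CPM in TG and 0.736 CPM in WT, and APBB1, which binds receptor tails, at 8.54 CPM in TG and 13.7 CPM in WT. GULP1, an engulfment adaptor, stood at 759 CPM in TG and 632 CPM in WT, and ADAM10, a protease that sheds receptors, at 109 CPM in TG and 139 CPM in WT.

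The ligands had 8 of 15 measured genes higher and none lower, beside the same 24.5% and 9.88% of all genes, and a median log2 ratio of 0.66. The apolipoprotein gene APOE was at 1.38 CPM in TG and 0.120 CPM in WT, and GPIHBP1, which holds lipase on capillaries, at 1.55 CPM in TG and 0.214 CPM in WT. FN1, a matrix protein, was at 5.62 CPM in TG and 1.45 CPM in WT. The lipase gene LPL was at 1045 CPM in TG and 1205 CPM in WT, and the amyloid precursor gene APP at 943 CPM in TG and 1069 CPM in WT.

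Transcripts of other cell types were also counted in cardiomyocyte-like nuclei. The ratios there were 11.4 for APOE, 7.24 for GPIHBP1 and 3.89 for FN1. In TG, APOE was highest in macrophage-like nuclei at 180 CPM, GPIHBP1 in vascular endothelial-like nuclei at 123 CPM and FN1 in fibroblast-like nuclei at 676 CPM. The 14 fibroblast markers summed to 267 CPM in TG cardiomyocyte-like nuclei and 98.2 CPM in WT ones, the 14 vascular endothelial markers to 246 and 182 CPM, and the 15 macrophage markers to 137 and 124 CPM, with none of these markers at 0. SORCS1 and DAB1, named above, were highest in Schwann or neural-like nuclei of the classes compared. They stood there at 202 and 137 CPM in TG and at 407 and 269 CPM in WT. The 11 Schwann or neural markers in the files summed to 112 CPM in TG and 85.1 CPM in WT cardiomyocyte-like nuclei. The part of these transcripts in the ligand, SORCS1 and DAB1 ratios was not tested.

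Of the 26 measured Wnt partners of LRP5 and LRP6, 5 were higher, 3 were lower and 18 were neither. Among all genes 24.5% were higher and 9.88% lower, so these counts lay near those shares. The median log2 ratio of these partners was 0.12. LGR4, the R-spondin receptor that strengthens Wnt signals, was at 28.0 CPM in TG and 99.3 CPM in WT, a ratio of 0.281 (0.265 to 0.299). DVL2, which relays the signal inside the cell, was at 7.27 CPM in TG and 14.8 CPM in WT. DKK2, a secreted ligand of LRP6, was at 4.0 CPM in TG and 0.830 CPM in WT, and RSPO3, a ligand of LGR4, at 1.66 CPM in TG and 0.883 CPM in WT. Of the classes compared, DKK2 was highest in vascular endothelial-like nuclei in TG, at 41.2 CPM, and in fibroblast-like nuclei in WT, at 114 CPM. The kinase gene GSK3B stood at 364 CPM in TG and 384 CPM in WT, and CTNNB1, the beta-catenin it marks for breakdown, at 181 CPM in TG and 145 CPM in WT. Of the agrin and MuSK partners of LRP4, 2 were measured, with AGRN at 0.473 CPM in TG and 0.910 CPM in WT and DOK7 at 33.1 CPM in TG and 28.1 CPM in WT.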

How the data were processed

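Per the file headers, the deposited values are UMI counts, 1 matrix per library, from Cell Ranger 5.0.0. Per the submitters' processing notes, Cell Ranger 3.1.0, Seurat 3.1.1 and the build Sscrofa11.1 were used, and this difference was not resolved. Whether counting used strand or introns is not given in the sources used here.

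Nuclei with at least 500 genes and at most 5% mitochondrial UMIs were kept. The nuclei of TG and WT were clustered jointly with the Leiden method (leidenalg 0.10.2, igraph 0.11.9, scanpy 1.11.5 and Python 3.11.15) on 1977 of 2000 variable genes, since 23 members and partner genes were taken out, with 30 principal components, 15 neighbours, resolution 1 and seed 1, without batch correction. Clusters were named from marker lists by thresholds set after the clusters had been seen, and the ending "-like" marks that only transcripts support a name. Pericyte-like nuclei also had the smooth muscle genes MYH11 and ACTA2 among their leading genes. No doublet caller was run. Instead, clusters were left out as mixed where the marker score (mean log2 enrichment) of unrelated classes reached 3, or where the cardiomyocyte score reached 1.5 beside another class with a median of at least 5000 UMIs. The pericyte-like cluster, with a cardiomyocyte score of 1.58 and a median of 3167 UMIs, was kept. Mixed clusters held 12.5% of TG and 9.58% of WT nuclei, and 2.12% and 2.41% stayed unnamed. Empty droplets were not used.

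Counts were summed per class and library and scaled to CPM, with exact Poisson intervals for levels, Clopper-Pearson intervals for shares and conditional binomial intervals for ratios (scipy 1.17.1, numpy 2.4.6, pandas 2.3.3). UMIs of 1 nucleus are not independent draws, so these intervals are too narrow for anything beyond counting. The steps were tested on simulated data. A gene counted as measured with 50 UMIs over both libraries. The members were named in every class that reached 100 nuclei in TG and in WT. From each partner list at most 4 genes past 1.5-fold and furthest apart were named, and the 2 others with the most UMIs. The 5 genes most correlated with LRP1B among those reaching 50 CPM, and the 3 annotated genes on either side of it, were named too. Some genes that these rules picked are counted but not named here. Members, lists and rules were chosen with earlier results of these data known. Alternatives changed the filters, clustering, class assignment, mixed clusters, scaling, weighting, depth, free RNA and the count minimum. Gene positions are from the RefSeq annotation of Sscrofa11.1.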

Additional observations from a re-analysis of the deposited data

Results flagged for a closer look

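LRP8 differed in direction between classes. In T or NK lymphocyte-like nuclei its log2 ratio of TG over WT was 0.92, with an interval of 0.04 to 1.84 and 50 UMIs in all, and in cardiomyocyte-like nuclei it was -1.02, with an interval of -1.20 to -0.84. The difference between the classes was not tested. The same lymphocyte-like class held the muscle gene RYR2 at 6603 CPM in TG against 4618 CPM in WT, and the 14 T or NK markers in the files summed to 2751 CPM in TG and 6408 CPM in WT, whose part in the ratio was not tested.

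LRP1B was high in a WT cluster outside the comparisons. Cluster 21, smooth muscle-like and led by MYH11, PDZRN4 and ITGA8, held 220 WT nuclei at 248.0 CPM (221 to 278, 301 UMIs), above the 88.4 CPM of WT cardiomyocyte-like nuclei. Its 11 TG nuclei stood at 386 CPM (239 to 589, 21 UMIs), too few for a comparison. Per 1000 RYR2 UMIs it held 71.9 LRP1B UMIs in TG (43.8 to 112) and 36.4 in WT (32.3 to 40.8), against 4.19 in WT cardiomyocyte-like nuclei. At 1000 UMIs, 12.6% of its WT nuclei showed LRP1B (8.44% to 17.7%).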

How the results depend on the processing

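The log2 ratio of LRP1B in cardiomyocyte-like nuclei was 4.36, and it was 4.17 without cluster 7, 4.48 with totals that leave out the most abundant gene, 4.50 with each nucleus weighted equally and 4.41 with nuclei thinned to 1000 UMIs. Under the 9 other alternatives it lay between 4.33 and 4.37. The difference in the share of nuclei with LRP1B at equal depth was 56.5 percentage points, and it was 54.5 with classes taken from marker counts without clustering, 50.8 without cluster 7, 43.2 at 500 UMIs and 66.0 at 2000 UMIs. The 6 other alternatives gave 55.1 to 56.5. A single member was higher under every alternative. A single member was lower too, except that there were 2 without cluster 7, where LRP4 was past the fold. Of the partner genes, 16 were higher, and 7 were at 1000 UMIs and 25 with no minimum of UMIs, while 8 were lower, and 5 were without the most abundant gene in the totals and 13 with no minimum. At 1000 UMIs and with no minimum, other genes are tested by construction, and elsewhere the cause was not tested. The alternatives that leave out cluster 7 or the shared barcodes, or count mixed clusters with cardiomyocyte signal as cardiomyocytes, were chosen after seeing the data. The direction of LRP6 turned in 1 alternative, and those of the other members held in all 13. No paired analysis was possible because each genotype has 1 library, so no replicate could be left out either. Depth limits LRP2, LRP4 and LRP8 most outside their highest class.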

Other observations

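The ligand list varied over the other classes. In macrophage-like nuclei 7 of 11 measured ligands were higher in TG and 1 lower, beside 20.2% and 10.9% of all genes, with a median log2 ratio of 1.88 beside 0.03 for all genes. In pericyte-like nuclei 5 of 11 were higher and 1 lower, beside 14.1% and 12.4% of all genes, with a median of 0.04. In lymphatic endothelial-like nuclei 5 of 12 were higher and 1 lower, beside 10.8% and 11.6% of all genes, with a median of 0.50. In macrophage-like nuclei APOE, which macrophages are known to secrete, was at 180 CPM in TG and 2.09 CPM in WT. In the same macrophage-like nuclei FN1 was at 271 CPM in TG and 4.18 CPM in WT. The protease trap A2M was at 39.8 CPM in TG and 2.79 CPM in WT there, and the matricellular gene THBS1 at 30.6 CPM in TG and 4.53 CPM in WT. These genes were chosen after their values had been seen. Fibroblast-like nuclei held FN1 at 676 CPM in TG and 244 CPM in WT, and the part of fibroblast RNA in the macrophage values was not tested.

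In lymphatic endothelial-like nuclei RELN, the ligand of VLDLR and LRP8, was at 2023 CPM in TG and 1431 CPM in WT, a ratio of 1.41 (1.35 to 1.48), in the class where VLDLR was highest. RELN leads this cluster and was also chosen after its values had been seen.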
